A study of Mus musculus with 16 samples.

Results

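The question here is whether the transcript response of heart muscle cells to a glucocorticoid was weaker or stronger when estradiol was present, and for which genes. The measure is the Dex by E2 interaction, which is the difference Dex+E2 minus E2 less the difference Dex minus Vehicle, on the log2 scale. A value above 0 means a more positive Dex difference with estradiol, and a value below 0 a more negative one. HL-1 cells, an established mouse atrial cardiomyocyte line, were exposed for 6 h to PBS (Vehicle), to 100 nM dexamethasone (Dex), a synthetic glucocorticoid, to 10 nM 17β-estradiol (E2), or to both (Dex+E2). The series holds 16 single-colour arrays, 4 for each treatment, and states 4 independent experiments in a single cell line. The 12 arrays analysed here were Vehicle-1, -2 and -3, Dex-1, -2 and -4, E2-1, -2 and -3, and Dex+E2-1, -2 and -4, so each treatment had 3. They were chosen on a measured value, the level of the glucocorticoid target Per1.

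Glucocorticoids act through the glucocorticoid receptor, encoded by Nr3c1, which enters the nucleus on binding its ligand and switches on genes that hold its response elements while dampening others, among them inflammatory genes. Estradiol acts through the estrogen receptors alpha and beta, encoded by Esr1 and Esr2, and through the membrane receptor encoded by Gper1. Receptors of both hormones occur in heart muscle and share coactivators, so each can in principle alter the targets of the other.

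A level is log2 of a gene's background-subtracted signal over its array's 75th percentile, so a gene at that percentile is at 0. In these bulk cultures, fewer cells of a type and less RNA per cell cannot be told apart. On the 12 arrays Per1 lay between -1.29 and -0.75 where the label gave no Dex and between 1.81 and 1.99 where it gave Dex. On the 4 arrays left out it lay on the other side of the midpoint of 0.35: at 1.75 and 1.95 on Vehicle-4 and E2-4, and at -1.15 and -1.11 on Dex-3 and Dex+E2-3. Per1 speaks to the Dex label alone. No value used in the choice bears on the E2 label.

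The arrays differed in ways that touch the results below. All 30 cardiomyocyte genes examined were well above background on all 12 arrays, including Myl7 at 7.62 to 8.09 and Tnnt2 at 7.13 to 7.43, which encode atrial myosin light chain and cardiac troponin T. The endothelial genes Pecam1, Cdh5, Tie1 and Tek and the leukocyte gene Ptprc were above background on 0 of the 12. The smooth muscle genes Acta2 and Tagln were bright, at 7.93 to 8.25 and 7.02 to 7.46. Vehicle-1 stood apart on the second principal component, at 69.45 against -27.19 to 2.60 for the other 11 arrays. Vehicle-1 also held 114 genes that lay over 3 below their own median over the 16 arrays although they were well above background on at least 12. Vehicle-3 held 41 such genes, Dex+E2-2 held 14, and the other arrays of the 12 held 0 to 2 each. On Vehicle-3, 40 of those 41 spots lay together in rows 45 to 90 and columns 1 to 10 of a grid of 532 rows and 85 columns. The arrays lay on 4 slides, none with all 4 treatments. Slides 1 and 4 together give an interaction from 6 arrays (Dex against Vehicle within slide 1, Dex+E2 against E2 within slide 4), and slides 2 and 3 give another from the remaining 6 (E2 against Vehicle within slide 2, Dex+E2 against Dex within slide 3). Slides 1 and 4 hold 1 E2 and 1 Dex+E2 array of the 12, and slides 2 and 3 hold 1 Vehicle and 1 Dex array, so each slide estimate rests on single arrays.

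No single gene had a detectable change of its Dex response with estradiol. Of 18033 genes tested, 0 passed a Benjamini-Hochberg adjusted p of 0.05 in limma (0%), and the smallest adjusted p was 0.927. An unadjusted p under 0.05 was reached by 797 genes (4.42%), against 902 that this threshold would give with no interaction anywhere. That number moved with the arrays used: it was 387 to 1596 with 1 array left out, 1096 on slides 1 and 4, 2104 on slides 2 and 3, 2125 on the arrays numbered 1 and 2, and 163 after normexp background correction. Of the 797, 661 were positive and 136 negative. Over all genes the interaction was above 0 for 59.4%, with a median of 0.05. The median standard error was 0.20 and the median 95% interval reached 0.44 to either side, so smaller interactions could not be resolved for a typical gene. That interval is for a single gene, before adjustment over all genes. After adjustment, wider interactions went uncalled too: Rfx1, at 0.99 ± 0.24, had a limma adjusted p of 0.927. The absence of called genes therefore does not exclude interactions of that size. The lean towards positive values was not shared by the slides: the median over all genes was -0.07 on slides 1 and 4 and 0.15 on slides 2 and 3, and 0.02 with slide as a block. It was absent after quantile normalisation, where 49.9% of genes were positive, in the deposited table (49.2%) and after normexp (46.0%), but present after local background subtraction with 50 added (64.2%) and on the arrays numbered 1 and 2 (64.3%). Quantile normalisation gives all arrays the same distribution, and the columns of the deposited table share a median. Both largely remove a shift between whole arrays, so neither can show whether the lean is real. Normexp left an uneven floor: the 25th percentile of an array ran from -3.32 to -0.32 over the 12 arrays, against -3.48 to -3.04 after local subtraction, so every normexp value below carries that difference between arrays.

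The receptors themselves were examined first. Nr3c1 was at 2.10, 2.25 and 1.96 with Vehicle, 1.81, 1.82 and 1.65 with Dex, 2.13, 2.00 and 2.06 with E2, and 1.87, 1.94 and 1.82 with both. The Dex arrays lay below the arrays without Dex in both arms, by 0.35 without E2 and 0.19 with E2, and the interaction was 0.16 ± 0.12 (SE, n = 3 per group). Esr2 was at low levels, -1.83 ± 0.06 (SD, n = 3) with Vehicle, -2.42 ± 0.22 with Dex, -1.94 ± 0.06 with E2 and -2.47 ± 0.13 with both. Its difference was -0.59 without E2 and -0.53 with E2, an interaction of 0.05 ± 0.17. Gper1 lay at -2.05 to -1.63 with Vehicle, -3.07 to -2.71 with Dex, -2.14 to -1.97 with E2 and -2.81 to -2.66 with both, and its interaction was 0.33 ± 0.19 (95% interval -0.09 to 0.75). For all 3 genes every array with Dex lay below every array without it, for Nr3c1 narrowly, at 1.94 against 1.96. How many of all genes separate groups of arrays in this way was not counted, here or for the genes below. Esr1 was well above background on 0 of the 12 arrays and was not tested. Nr3c2, which encodes the mineralocorticoid receptor, was near background and was fitted on 11 arrays, with an interaction of 0.51 ± 0.48.

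Of the 23 genes listed as receptors, chaperones and cofactors, 19 were tested and 14 had a positive interaction, with a median of 0.09. Ppargc1a, encoding a coactivator that drives mitochondrial gene expression, had the highest value, 0.66 ± 0.20, with differences of -0.22 without E2 and 0.44 with E2. Fkbp4, encoding a cochaperone of steroid receptors, had the lowest, -0.33 ± 0.12, with differences of 0.26 and -0.07. Both were among the genes with an unadjusted p under 0.05, and neither was called over all genes.

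The transcription factor genes that glucocorticoids switch on gave Dex differences of similar size in both arms. Klf15, which directs amino acid and lipid use in heart, was at 0.15, -0.34 and 0.53 with Vehicle, 2.19, 2.14 and 2.39 with Dex, -0.15, 0.02 and 0.62 with E2, and 2.25, 2.32 and 2.51 with both. Its Dex difference was 2.12 without E2 and 2.20 with E2, and the interaction was 0.08 ± 0.31 (95% interval -0.61 to 0.77), with -0.36 from its other probe. The groups with and without Dex were far apart, and within each the E2 and non-E2 arrays overlapped. Klf9, a related repressor, had differences of 0.93 and 0.85 and an interaction of -0.08 ± 0.17. Cebpd and Cebpb, which encode acute-phase and differentiation factors, had interactions of 0.08 ± 0.16 and -0.03 ± 0.16 around differences of 1.47 and 1.55 and of 1.42 and 1.39. Per1, the clock gene used to choose the arrays, had differences of 2.85 and 2.93, which are given as a description.

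**Figure D1:**
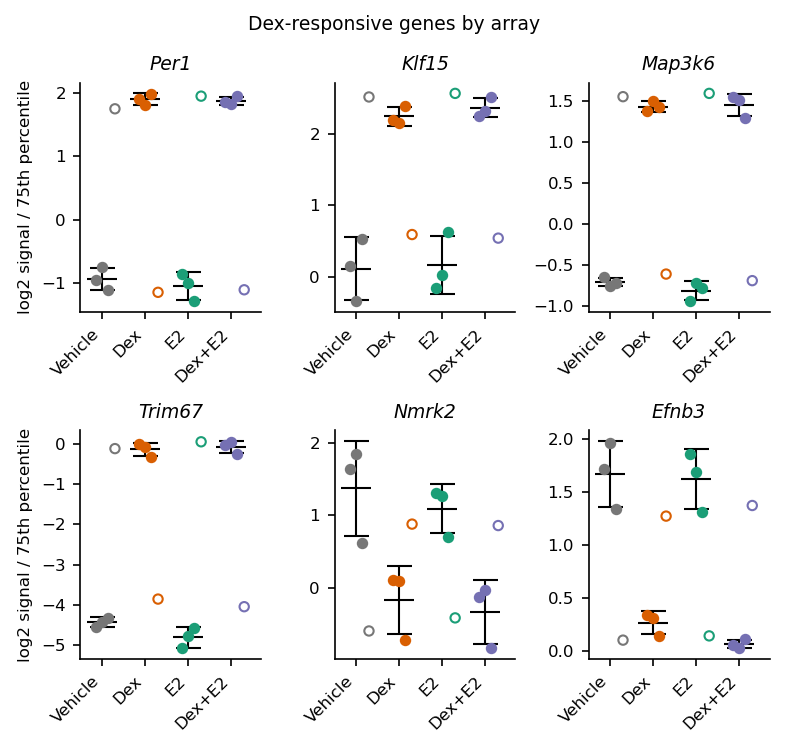
Levels (log2 signal over the array's 75th percentile) of 6 genes in each treatment. Filled points are the 12 arrays used, the black bar and whiskers their mean and SD (n = 3), and open points the 4 arrays left out. The filled Dex and Dex+E2 points overlap except in Efnb3, the Vehicle and E2 points overlap except in Trim67, and the open points lie with the opposite Dex label.

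Genes that feed back on the receptor or on its inflammatory targets followed. Fkbp5, encoding a cochaperone that lowers the affinity of the receptor for its ligand, was at -1.30, -1.32 and -0.75 with Vehicle, -0.45, -0.42 and 0.24 with Dex, -0.97, -0.89 and -0.85 with E2, and -0.44, -0.46 and 0.03 with both. Its interaction of -0.30 ± 0.30 was the lowest among the 41 glucocorticoid-induced genes measured, and the 3 probes of the gene gave values from -0.30 to 0.92. Tsc22d3, encoding the anti-inflammatory protein GILZ, had differences of 0.63 and 0.54 and an interaction of -0.09 ± 0.14. Sgk1, encoding a kinase that regulates ion channels, had differences of 0.21 and 0.47 and an interaction of 0.26 ± 0.26. The phosphatase gene Dusp1 had differences of -0.30 and -0.06 and an interaction of 0.23 ± 0.32, and Ptgds, encoding prostaglandin D synthase, had 0.06 and 0.03. Lcn2, encoding lipocalin 2, was above background on 2 of the 12 arrays and was not tested.

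The metallothionein genes Mt1 and Mt2, which bind zinc and copper, had nearly equal mean differences in both arms, 1.19 and 1.19 for Mt1 and 1.94 and 1.92 for Mt2. The interaction was 0.00 ± 0.20 for Mt1 and -0.03 ± 0.36 for Mt2. For Mt2 the 2 slide pairs pointed in opposite directions, at -0.75 on slides 1 and 4 and 0.58 on slides 2 and 3.

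The genes with the widest Dex differences covered several functions. Trim67, encoding a tripartite-motif ubiquitin ligase, was at -4.55, -4.43 and -4.32 with Vehicle, 0.01, -0.08 and -0.31 with Dex, -5.09, -4.77 and -4.58 with E2, and -0.01, 0.05 and -0.25 with both. Every E2 array lay below every Vehicle array, while the Dex and Dex+E2 arrays overlapped. Its interaction of 0.44 ± 0.21 (95% interval -0.03 to 0.90) was 0.94 on slides 2 and 3 and -0.13 on slides 1 and 4. Map3k6, encoding a stress-activated kinase, was at -0.65, -0.75 and -0.72 with Vehicle, 1.37, 1.50 and 1.42 with Dex, -0.94, -0.72 and -0.78 with E2, and 1.54, 1.51 and 1.29 with both. Its interaction of 0.12 ± 0.13 had a 95% interval of -0.16 to 0.40, which as a ratio of the Dex folds with and without E2 is 1.09 with limits of 0.90 and 1.32. Arrdc2, encoding an arrestin-domain protein, had differences of 3.29 and 3.02 and an interaction of -0.27 ± 0.40. Plin4, encoding a lipid-droplet coat protein, had differences of 2.22 and 2.55 and an interaction of 0.33 ± 0.25. Tent5b, encoding a poly(A) polymerase, and Lrg1, encoding a secreted glycoprotein, had interactions of 0.04 ± 0.20 and -0.12 ± 0.25.

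Of the preselected genes, fewer were lower than higher with Dex. Nmrk2, encoding a muscle kinase of the nicotinamide riboside route to NAD, was at 1.64, 1.85 and 0.62 with Vehicle, 0.11, 0.10 and -0.71 with Dex, 1.31, 1.26 and 0.70 with E2, and -0.12, -0.03 and -0.83 with both. Its interaction was 0.12 ± 0.49, the widest error among the genes bright on all 12 arrays in the panel. Efnb3, encoding an ephrin ligand, was at 1.71, 1.96 and 1.34 with Vehicle, 0.34, 0.31 and 0.14 with Dex, 1.86, 1.69 and 1.31 with E2, and 0.05, 0.03 and 0.11 with both, an interaction of -0.15 ± 0.23. For Efnb3 every Dex+E2 array lay below every Dex array, while Vehicle and E2 overlapped. Parm1, encoding a membrane mucin of heart muscle, had differences of -0.75 and -0.41 and an interaction of 0.34 ± 0.19. The sarcomere genes Myoz2 and Myom2, whose products sit at the Z disc and the M band, had positive differences of 1.27 and 1.07 without E2, and interactions of -0.15 ± 0.22 and -0.13 ± 0.33. Entpd2, encoding an enzyme that splits extracellular ATP, was at -3.57 on Vehicle-1 and Vehicle-2, at -5.85 on Vehicle-3 and between -6.23 and -5.43 on the other 9 arrays. Its interaction of 1.46 ± 0.69 was 2.33 on slides 1 and 4 and -0.06 on slides 2 and 3, and it was above background on 3 Vehicle, 1 Dex, 2 E2 and 1 Dex+E2 arrays.

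**Figure D2:**
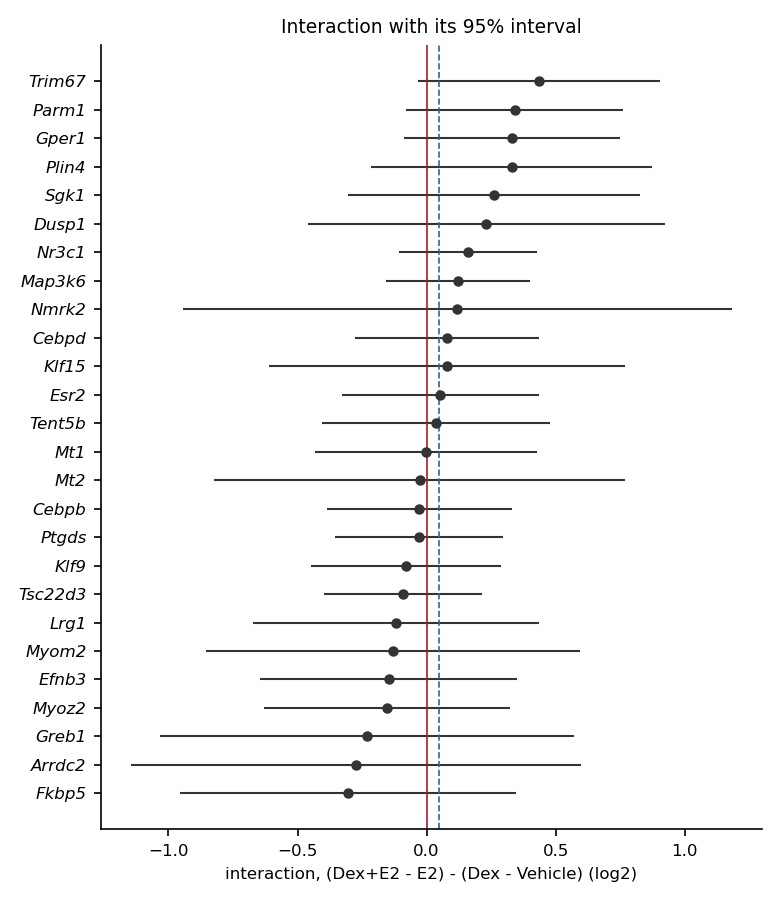
Interaction (x axis, log2) of 26 preselected genes that were well above background on all 12 arrays, without Per1, which chose the arrays, with its 95% interval from limma. The red line marks 0 and the dashed line the median of all genes tested, 0.05. All 26 intervals include 0, and 13 of the 26 values are positive.

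Of these 26 genes, 5 had the same sign on slides 1 and 4 as on slides 2 and 3, and 21 had opposite signs. The 2 estimates share no array. Of the 26 values, 10 were positive on slides 1 and 4 and 19 on slides 2 and 3. Across all genes measured in both (17999), 41.8% had the same sign and the values correlated at r = 0.21, a description across genes that are not independent.

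Estrogen targets followed. Greb1, a growth regulator induced by estrogen receptors, was at -2.29, -2.29 and -1.26 with Vehicle, -1.39, -1.30 and -0.84 with Dex, -1.17, -1.45 and -1.64 with E2, and -0.79, -1.08 and -0.78 with both. The third Vehicle array lay among the E2 arrays, and the mean Dex differences of Greb1 were 0.77 and 0.54. Its interaction was -0.23 ± 0.37. Tff1, encoding a secreted trefoil peptide, lay between -5.96 and -4.92, near background, with an interaction of -0.73 ± 0.33 and an unadjusted p of 0.045. It was well above background on 2 of 3 Vehicle and 2 of 3 Dex arrays, and its slide estimates were -1.26 and -0.17. Pgr, encoding the progesterone receptor, was above background on 1 of the 12 arrays and was not tested. Of 25 measured genes on a list of estrogen-induced genes, 11 were positive and 14 negative, with a median of -0.06, which was 0.02 on slides 1 and 4.

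To follow Dex-responsive genes without choosing them on the 12 arrays, genes were taken from the 4 arrays left out. A gene entered when Dex-3 differed from Vehicle-4, and Dex+E2-3 from E2-4, by at least 1 in the same direction, whatever that direction. This held for 152 genes (0.843%). Of the 4 arrays, Dex-3 held 41 very low genes as defined above, and the others held 0 or 1 each. Just inside the limit were Gpat3 and Asb11, with 1.015 and 1.009 as the smaller of their differences, and just outside were Gcnt1 and Tob2, at 0.999 and 0.998. On the 12 arrays 126 of the 152 had a Dex difference opposite in sign to that on the 4 without E2, and 125 with E2. The median ratio of the Dex difference with E2 to that without E2 was 1.01, with quartiles of 0.70 and 1.15. The difference was larger with E2 for 86 genes and smaller for 66, and 0 were called (the background is 0%). Over all genes tested its size was smaller with E2 for 10776 of 18033.

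Restricting to the 85 of these genes that were well above background on all 16 arrays, a restriction added after the values were seen, gave a median ratio of 1.04 with quartiles of 0.93 and 1.15. The Dex differences in the 2 arms, which share no array, correlated at r = 0.98 across these genes with a slope of 1.02. This r pools genes higher and lower with Dex. Within the 71 that were lower under the Dex label on the 4 arrays it was 0.93 (slope 1.04). Within the other 14 it was 0.71 (slope 0.86). The interactions of the 85 genes on slides 1 and 4 and on slides 2 and 3 correlated at r = -0.30. Of the 71, which include Per1, 70 were higher with Dex on the 12. Among the 71 the difference was larger with E2 for 51 and smaller for 20, with a median ratio of 1.06, and 70.4% had a positive interaction against 59.4% of all genes. The median interaction of those 71 was 0.08 on the 12 arrays, -0.01 on slides 1 and 4 (35 positive, 36 negative), 0.11 on slides 2 and 3 and -0.70 after normexp. The other 14 were all lower with Dex on the 12. Among them the difference was smaller in size with E2 for 12 and larger for 2, beside smaller for 10776 of 18033 over all genes. Their median ratio was 0.84. Their median interaction was 0.21, which was 0.07 on slides 1 and 4, 0.16 on slides 2 and 3, and 0.05 to 0.17 under the other background corrections and scalings. The 14 include Heyl, a Notch-responsive repressor (-1.53 without E2 and -1.10 with E2), Gja5, encoding the atrial gap junction protein connexin 40 (-1.46 and -1.06), and Cxcl10, an interferon-induced chemokine gene (-1.03 and -0.81). The 3 interactions were 0.43 ± 0.49, 0.39 ± 0.43 and 0.23 ± 0.31, each smaller than its error. Popdc3 and Efnb3 were the 2 with a larger difference with E2.

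**Figure D3:**
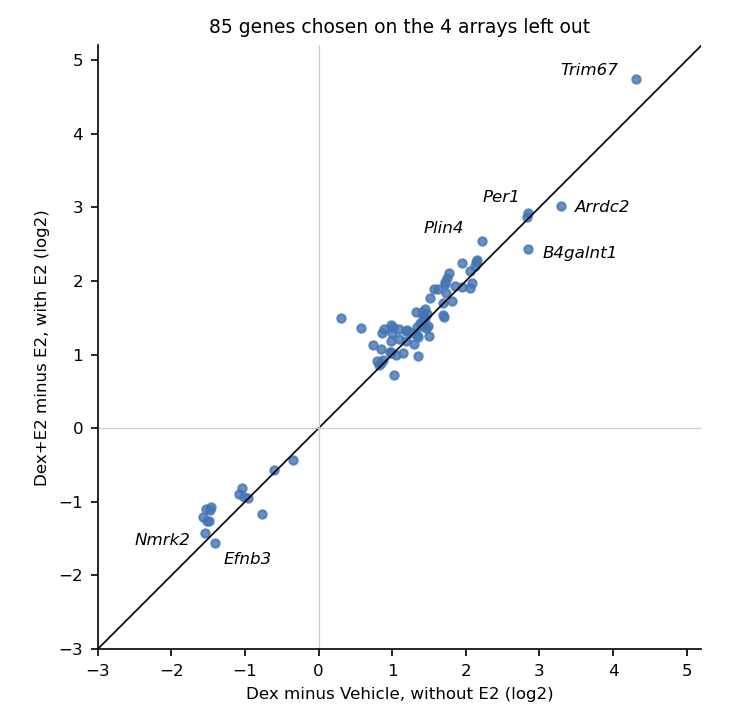
Dex difference without E2 (x axis) and with E2 (y axis), both log2, for the 85 genes chosen on the 4 arrays left out and well above background on all 16. Each point is a gene and the line marks equal differences. The points lie along the line from Efnb3 and Nmrk2 at the lower left to Trim67 at the upper right.

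Among the higher genes of that set, B4galnt1, encoding a ganglioside-synthesising enzyme, had differences of 2.85 and 2.43 and an interaction of -0.42 ± 0.30. Per2, a partner of Per1 in the clock, had 0.98 and 1.40 and an interaction of 0.42 ± 0.25. Adamts1, encoding a secreted protease, had 2.16 and 2.28, and Sphk1, encoding sphingosine kinase, had 2.06 and 1.91. The gene with the widest difference on the 4 arrays, Slc10a6, encoding a transporter of sulphated steroids, had 4.57 and 4.67, but was above background on 1 of 3 Vehicle and 1 of 3 E2 arrays. Drd4 and Kcnh1, which encode a dopamine receptor and a potassium channel, were above background on 0 of 3 Vehicle and 0 of 3 E2 arrays, so their levels without Dex are bounds and no interaction is read from them. No interaction is read either from D630023F18Rik, above background on 0 of 3 Dex arrays at levels from -8.45 to -3.64, or from 2310081J21Rik, above background on 0 of 3 arrays with Dex, with E2 and with both. Gm11823 was near background too, with -1.38 ± 1.43. Pdzd2, encoding a PDZ-domain protein, was fitted on 11 arrays, with differences of 1.43 and 1.63 and an interaction of 0.19 ± 0.13. Its 3 probes gave interactions from 0.02 to 1.43. It is not among the 85 genes, and its wide difference on the 4 arrays rests largely on Dex-3, at -1.36 against 0.82 on Dex+E2-3.

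Promoter sequences are shown for the members of this set that hold the palindromic glucocorticoid response element, since the set was chosen for its Dex difference. RefSeq promoters (mouse build GRCm38.p6, 250 bases before to 50 after the gene start) were matched by symbol for 48 of the 71 higher and 8 of the 14 lower genes. The letters GNACANNNTGTNC, read on both strands, occurred in 2 of the 48 (4.17%) and 0 of the 8, in 0.418% of the 10517 matched genes tested, and in 0.537% of all 27025 promoters. The estrogen response element GGTCANNNTGACC, also read on both strands, occurred in 0 of the 48 and 0 of the 8. It occurred in 0.0285% of the 10517 matched genes tested and 0.074% of all promoters, so 0 in so few promoters carries no information. These matches describe letters in a window, and binding was not measured. The part before the gene start is given 5′ to 3′, with the 13 bases of the element in capitals. Map3k6 lies on the plus strand at chr4:133240568-133240817, its element beginning at -181 from the start, and Mt1 on the plus strand at chr8:94178839-94179088, its element beginning at -94.
Map3k6: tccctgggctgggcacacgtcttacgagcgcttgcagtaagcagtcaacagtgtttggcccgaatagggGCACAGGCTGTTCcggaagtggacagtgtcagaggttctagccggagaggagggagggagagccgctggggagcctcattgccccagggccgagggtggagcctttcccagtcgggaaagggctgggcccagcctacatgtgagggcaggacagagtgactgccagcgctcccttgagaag
Mt1: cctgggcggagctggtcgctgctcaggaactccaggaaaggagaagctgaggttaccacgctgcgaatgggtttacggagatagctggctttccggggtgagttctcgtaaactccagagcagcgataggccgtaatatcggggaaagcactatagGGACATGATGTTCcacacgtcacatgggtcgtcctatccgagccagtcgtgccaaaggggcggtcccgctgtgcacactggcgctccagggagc
The interactions of these genes, 0.12 ± 0.13 and 0.00 ± 0.20, lie on either side of the median of all genes.

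None of the 10 named genes with the smallest unadjusted p was on the list of glucocorticoid-induced genes. That list holds 41 of the 18033 genes tested, so 0 among any 10 genes would be usual. Dicer1, encoding the enzyme that makes mature microRNAs, was at 0.20, 0.15 and 0.22 with Vehicle, -0.16, -0.11 and -0.36 with Dex, -0.08, -0.15 and -0.06 with E2, and 0.14, -0.01 and 0.03 with both. The Vehicle arrays were the highest, Dex+E2 next, and E2 and Dex below, and the interaction was 0.55 ± 0.12 (adjusted p 0.927). Afdn, encoding the junction protein afadin, was at 3.56, 3.64 and 3.60 with Vehicle, 3.19, 3.15 and 2.89 with Dex, 3.33, 3.27 and 3.34 with E2, and 3.43, 3.33 and 3.22 with both, an interaction of 0.53 ± 0.12. Rfx1, encoding a transcription factor, had 0.99 ± 0.24, with Dex arrays from -1.46 to -1.05 below all other arrays. Kdm5a, encoding a histone demethylase, had 0.63 ± 0.15, and Luzp1, Ankrd26, Golga4, Hmgb1-rs17 and Fry had 0.71, 0.68, 0.49, 0.46 and 0.36. Hmgb1-rs17 is a near copy of Hmgb1, so its value is uncertain. Vamp3, encoding a vesicle fusion protein, was the only negative one of the 10, at -0.44 ± 0.12: its E2 arrays, from 0.21 to 0.34, lay above all others. All 10 had an adjusted p of 0.927.

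**Figure D4:**
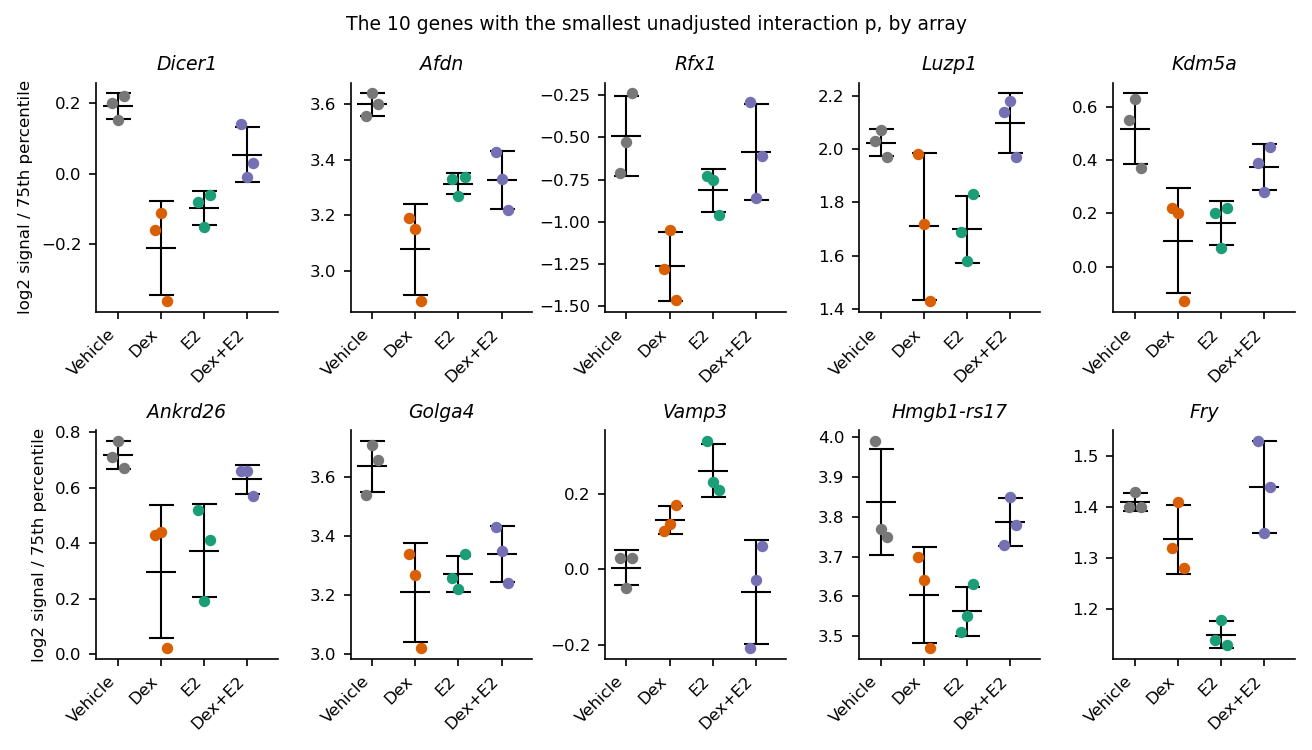
Levels (log2 signal over the array's 75th percentile) of the 10 named genes with the smallest unadjusted interaction p. Points are arrays and the bar and whiskers the mean and SD of 3. In 9 of the 10 the interaction is positive, and Vamp3 is the exception.

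Probes of these genes often disagreed. The second probe gave 0.02 for Dicer1, 0.06 for Rfx1, -0.02 for Luzp1 and -0.13 for Vamp3. The probes of Afdn ran from 0.03 to 1.58, those of Ankrd26 from 0.14 to 0.68, of Golga4 from 0.04 to 0.49 and of Fry from -0.08 to 0.36. The 3 probes for Kdm5a gave 0.41 to 0.68.

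The measured glucocorticoid-induced genes, 41 of 50 listed and Per1 among them, had positive interactions in 27 and negative in 14, with a median of 0.08 against 0.05 for all genes tested. The median Dex difference of the list was 0.49 without E2 and 0.49 with E2. Its size was smaller with E2 for 19 and larger for 22, while over all genes it was smaller for 10776 of 18033. The median of the list was 0.10 on slides 1 and 4, 0.02 on slides 2 and 3 and 0.05 with slide as a block. An unadjusted p under 0.05 was reached by 0 of the 41, beside 4.42% of all genes tested. For a list of this length 0 is near that share. The highest value was 0.68 ± 0.40 for Angptl4, encoding a lipoprotein lipase inhibitor, with differences of -0.91 and -0.24, and next came Bcl6, a transcriptional repressor gene, at 0.34 ± 0.18, with 0.79 and 1.14.

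Of other groups, the genes of immediate-early transcription were positive in 14 of 18 (median 0.18), cytokine and NF-kB genes in 10 of 13 (0.14), interferon-response genes in 14 of 17 (0.13) and clock genes in 15 of 18 (0.12). Of all genes tested, 59.4% were positive (median 0.05). The positive clock genes include Bhlhe40, Arntl and Dbp, at 0.006, 0.004 and 0.0001, and Per1, which chose the arrays. The immediate-early genes were positive in 10 of 18 after normexp and in 11 of 18 on slides 2 and 3, where their median of 0.11 lay below the 0.15 of all genes (68.1% positive). That of the cytokine genes was -0.01 after quantile normalisation, -0.02 in the deposited table and -0.17 on slides 1 and 4. That of the interferon genes was -0.36 after normexp and -0.03 on slides 1 and 4, and that of the clock genes -0.35 after normexp and -0.004 on slides 2 and 3. The first 3 of these had negative median Dex differences, and less negative ones with E2: -0.18 and -0.04, -0.39 and -0.25, and -0.20 and -0.12. Among them were Egr2, an immediate-early factor gene, at 0.38 ± 0.19, Il6, encoding interleukin 6, at 0.32 ± 0.33, and Isg15, encoding a ubiquitin-like interferon product, at 0.44 ± 0.32. In the clock group Clock, encoding the core activator, had 0.40 ± 0.17. The opposite lean was seen in cholesterol synthesis, positive in 5 of 24 (median -0.15), and in endoplasmic reticulum stress and amino acid genes, positive in 5 of 23 (-0.06). These medians turned to 0.24 and 0.23 after normexp, and that of cholesterol synthesis was -0.28 on slides 1 and 4 and 0.11 on slides 2 and 3. The stress and amino acid genes were positive in 10 of 23 on slides 1 and 4 (median -0.20) and in 11 of 23 on slides 2 and 3 (-0.01). All genes were positive in 41.2% and 68.1% there. Fdft1, encoding squalene synthase, had -0.36 ± 0.16, with differences of 0.18 and -0.18, and Atf4, the central factor of the amino acid response, had -0.27 ± 0.12. Acat2 had the lowest value, -2.21, from a single Vehicle-1 spot at -8.01 while the other 15 arrays lay between -2.14 and -1.66. With such low spots left out it was -0.20 and the median of the group was still -0.15. Cardiomyocyte genes were positive in 16 of 30 (median 0.02). No member of any list was called, and since Dex minus Vehicle enters the interaction with a minus sign, error in it moves that difference and the interaction in opposite directions.

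**Figure D5:**
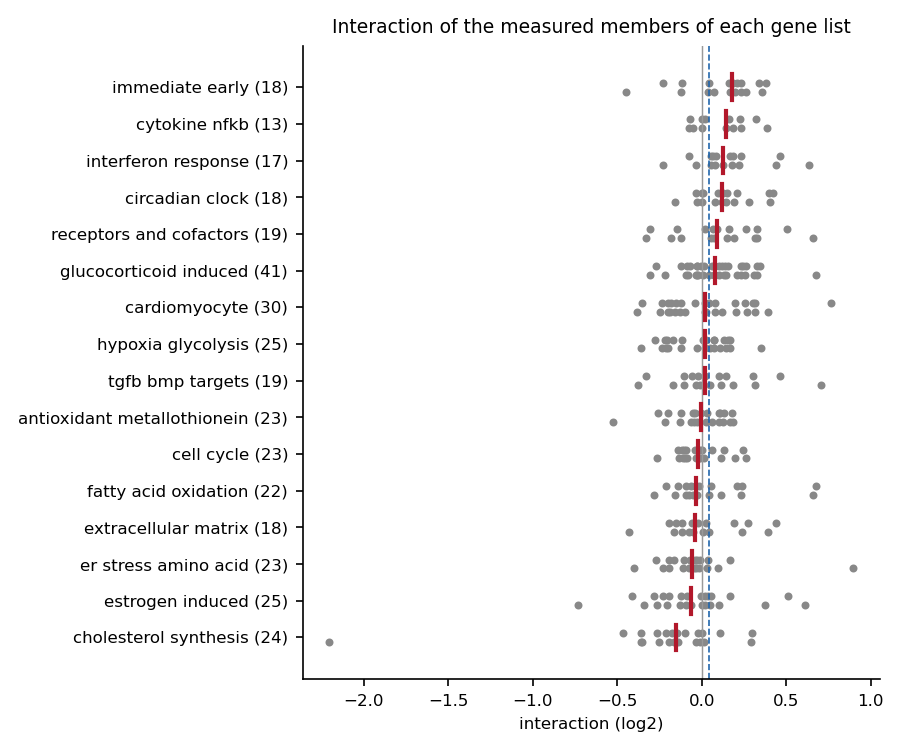
Interaction (x axis, log2) of every measured member of 16 gene lists, with the number measured in parentheses. Grey points are genes, red bars list medians, the grey line 0 and the dashed line the median of all genes, 0.05. List medians run from -0.15 for cholesterol synthesis to 0.18 for immediate-early genes, and the point at -2.21 is Acat2.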

How the data were processed

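RNA from HL-1 cultures was hybridised to single-colour Agilent arrays. Spots were quantified, per the submitters' processing notes, with Agilent Feature Extraction 12. The signal used is a linear intensity after removal of background, per the file headers. The deposited table of log2 values for these arrays was used as an alternative: its making is not described in the sources used here, its columns share a median of 4.698, and each correlates at r of at least 0.999 with its own array. Groups came from the labels. The 12 arrays, the gene lists and the panel were chosen with earlier results of these data known.

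Control and outlier-flagged spots were removed and the spots of each of 41174 probes averaged. Levels were log2 of that signal less the array's 75th percentile (402 to 557 intensity units). On the 12 arrays 58.6% to 65.0% of probes exceeded background clearly, 0 were saturated, and array number limits the precision. Kept were the 24787 probes above background on all 3 arrays of some treatment, and the brightest probe stood for each gene. RefSeq (GRCm38.p6) named 28223 probes, 12951 kept an accession, and 18033 genes were tested, 13133 with a symbol. The interaction was fitted with limma 3.58.1 (R 4.3.3; lmFit, then trended eBayes) over the 12 arrays, with treatment as the only term and 8 residual degrees of freedom, two-sided and adjusted over all genes. The fit was tested on simulated data. Lists are described without a test. Named genes are a fixed panel, the 10 genes with a symbol and the smallest p, and the 12 with the widest difference on the 4 other arrays. Other list members and genes of that set were named after their values were seen. Zbtb16, in the panel, matched no probe by symbol.

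Alternatives were slide and replicate blocks, slide pairs, all 16 arrays, arrays numbered 1 and 2, normexp (offset 50) and plain background subtraction on the spot median, quantile normalisation, other filters, probe means, no trend and each array left out. Same-numbered arrays deviated from their group means with correlations of -0.31 to 0.48, 5 of 14 above 0.1, so the numbers were not treated as pairs.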

Additional observations from a re-analysis of the deposited data

Results flagged for a closer look

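Vehicle-4 and E2-4, which are outside the comparison, carried a Per1 signal above that of the arrays with the same label. For Per1 this follows from the rule, which left these arrays out for that reason. Per1 was at 1.75 on Vehicle-4, where the highest Vehicle array used was at -0.75, and at 1.95 on E2-4, where the highest E2 array used was at -0.86. Klf15, Map3k6 and Trim67 lay with it, at 2.51, 1.55 and -0.11 on Vehicle-4 and at 2.56, 1.59 and 0.06 on E2-4, against highest values of 0.53, -0.65 and -4.32 on the Vehicle arrays used. Why these arrays differ from their labels was not tested.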

How the results depend on the processing

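The count of called genes was 0 under all alternatives except 2. Slides 2 and 3 alone (1 Vehicle and 1 Dex array) gave 41, all negative, of which 23 had the same sign on slides 1 and 4. Of these 41 genes, 38 were among the low spots of Vehicle-3, and with the low spots left out, an alternative chosen after seeing the data, slides 2 and 3 gave 0 called (smallest adjusted p 0.425). Leaving out 1 array gave 0 to 1 called: without Dex+E2 replicate 4 it was the unnamed AK039932, which was above background on 5 of 12 arrays. Genes at an unadjusted p under 0.05 then numbered 387 to 1596. The median of the glucocorticoid-induced genes was 0.03 to 0.13 with 1 array left out and 0.29 after normexp. The median ratio of the genes chosen on the 4 other arrays was 0.957 to 1.00 with 1 array left out, 0.919 on slides 1 and 4, 0.953 after quantile normalisation, 0.953 in the deposited table and 0.218 after normexp. Local background subtraction with 50 added, also chosen after seeing the data, gave 1.00 and 0.06. The cause was not tested. The replicate block, which assumes that arrays with the same number belong together, gave 0 called, a list median of 0.08 and a ratio of 1.01. Scaling moved the median of all genes from 0.05 to -0.10 (normexp), -0.0003 (quantile), -0.004 (deposited table) and 0.06 (local subtraction), with 46.0%, 49.9%, 49.2% and 64.2% of genes positive. Normexp left the 25th percentile of the arrays at -3.32 to -0.32, against -3.48 to -3.04 after local subtraction. Of the 47 named genes 0 were called under any alternative, and 13 changed sign on each slide pair, 19 after normexp, 10 without Vehicle replicate 2 and 0 to 8 under the others. The ratio was not computed on all 16 arrays, which include those that chose the genes, nor on slides 2 and 3, which hold no Dex and Vehicle arrays on a shared slide. Signal limits the dim genes: near background, levels differ by several log2 units between arrays of a group.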

Other observations

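The widest interactions of all genes rested on single arrays or dim spots. Selenof, which encodes a selenoprotein of the endoplasmic reticulum, had the lowest value, -4.18, from Vehicle-1 at -7.21 while the other 15 arrays lay between 5.19 and 5.67. With the low spots left out its interaction was 0.03. Bsg, encoding basigin, was at -6.21 on Vehicle-3 and between 3.33 and 3.90 elsewhere, and Chchd10, encoding a mitochondrial protein, was at -5.01 there and between 7.27 and 7.78 elsewhere. AK039932 had the highest value, 4.83, at levels between -8.25 and -4.14. Leaving out the 176 low values of the 12 arrays gave 0 called genes, 858 with an unadjusted p under 0.05 and a smallest adjusted p of 0.712.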
